A study of Mus musculus with 24 samples.

Results

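The nuclear genes of oxidative phosphorylation were examined in a chromatin immunoprecipitation series on dimethylation of histone H3 at lysine 9 (H3K9me2) in mouse heart. The members are protein-coding genes whose symbol begins with Nduf, Uqcr, Atp5, Sdha, Sdhb, Sdhc or Sdhd, or with Cox4, Cox5, Cox6, Cox7 or Cox8. By this rule 100 of 21887 protein-coding genes qualified, and 62 of them had at least 1 of the 53386 listed regions within the gene or within 2 kb of it. Those genes hold 122 regions, all of which are used here. Of all protein-coding genes 55.0% have such a region, against 62.0% of the members. The prefix rule also takes in the complex I assembly factors named Ndufaf and the complex II assembly factors named Sdhaf, and these are kept apart from the structural subunits. Genes were placed in a complex by symbol alone, so a gene counted as a structural subunit may not be one.

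Biopsies came from the hearts of 6 C57BL6 mice aged 12 months, 3 female and 3 male, after ischemic preconditioning, a procedure of brief coronary occlusions that protects the heart against a later infarct. All 6 mice had 4 cycles of 5 min of ischemia and 5 min of reperfusion and then 30 min of reperfusion, and the samples analysed include no sham-operated heart. The groups are H3K9me2 of the area at risk (tissue behind the occluded artery), input chromatin of the area at risk, H3K9me2 of the remote myocardium (tissue of the same hearts that kept its blood supply) and input chromatin of the remote myocardium, each with 6 libraries. The biopsies are bulk tissue of about 25 mg, in which fewer cells that carry the mark and less of the mark per cell cannot be told apart.

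The respiratory chain passes electrons through complexes I to IV of the inner mitochondrial membrane, and complex V uses the resulting proton gradient to make ATP. Most subunits are encoded in the nucleus, and heart muscle depends on them for nearly all of its ATP. H3K9me2 marks silenced chromatin, with G9a and GLP as its main methyltransferases, and active promoters usually carry little of it.

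The promoters of 6 genes are shown, 1 each for complexes I to V and for the complex I assembly factors: the gene with the smallest p-value, in the remote myocardium, of a region that covers the gene start and was lower in H3K9me2 than in input. None is shown for the complex II assembly factors, which were made a class of their own later. Each is 300 bases long, 250 before and 50 after the start, read 5′ to 3′ along the gene's strand, from RefSeq on build GRCm38.p6. Capitals mark matches, on either strand, to 4 motif strings of transcription factors known for respiratory-chain genes: the NRF1 core GCGCATGC (reverse GCATGCGC), the ETS or GABP string CCGGAAG (reverse CTTCCGG), the YY1 string AAGATGGC (reverse GCCATCTT) and the ERR string TCAAGGTCA (reverse TGACCTTGA). The promoter of Ndufs7, which encodes an iron-sulfur core subunit of complex I, lies at chr10:80249199-80249498 on the plus strand and holds the YY1 string. The promoter of Ndufaf8, a complex I assembly factor, lies at chr11:120098684-120098983 on the plus strand and holds the ETS and YY1 strings. The promoter of Sdhd, a membrane anchor of complex II, lies at chr9:50603800-50604099 on the minus strand and holds the ETS and ERR strings in reverse. The promoter of Uqcr11, a small subunit of complex III, lies at chr10:80406772-80407071 on the minus strand and holds the NRF1 string in reverse and the ETS string. The promoter of Cox6a1, the broadly expressed form of a regulatory subunit of complex IV, lies at chr5:115348909-115349208 on the minus strand and holds overlapping NRF1 matches on both strands and the ETS string in reverse. The promoter printed for Atp5d, the delta subunit of the rotor stalk of complex V, lies at chr10:80142025-80142324 on the plus strand and holds none of the 4 strings. Another start is listed for Atp5d, and its promoter is not shown.
Ndufs7: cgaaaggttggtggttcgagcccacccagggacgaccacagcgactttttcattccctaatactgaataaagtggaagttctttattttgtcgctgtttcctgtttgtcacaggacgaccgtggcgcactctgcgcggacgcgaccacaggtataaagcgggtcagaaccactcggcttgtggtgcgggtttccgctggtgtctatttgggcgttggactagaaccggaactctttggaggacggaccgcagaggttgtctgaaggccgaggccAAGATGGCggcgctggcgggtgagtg
Ndufaf8: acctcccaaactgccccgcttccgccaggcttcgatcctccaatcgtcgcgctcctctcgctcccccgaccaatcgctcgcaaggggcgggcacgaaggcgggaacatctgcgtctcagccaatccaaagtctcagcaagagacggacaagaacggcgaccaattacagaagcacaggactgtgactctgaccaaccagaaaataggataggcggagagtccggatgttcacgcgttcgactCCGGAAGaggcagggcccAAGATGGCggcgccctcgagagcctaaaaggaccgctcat
Sdhd: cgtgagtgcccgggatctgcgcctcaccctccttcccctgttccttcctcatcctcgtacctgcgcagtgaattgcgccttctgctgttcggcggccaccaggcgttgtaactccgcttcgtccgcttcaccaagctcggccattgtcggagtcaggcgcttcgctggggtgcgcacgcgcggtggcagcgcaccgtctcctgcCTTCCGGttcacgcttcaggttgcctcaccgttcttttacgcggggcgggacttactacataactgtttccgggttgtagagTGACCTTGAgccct
Uqcr11: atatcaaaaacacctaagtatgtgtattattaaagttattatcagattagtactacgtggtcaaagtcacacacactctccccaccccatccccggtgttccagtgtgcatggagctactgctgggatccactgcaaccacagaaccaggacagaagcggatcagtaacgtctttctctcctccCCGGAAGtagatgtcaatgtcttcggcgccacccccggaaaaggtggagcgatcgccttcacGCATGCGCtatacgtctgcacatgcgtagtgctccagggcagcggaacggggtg
Cox6a1: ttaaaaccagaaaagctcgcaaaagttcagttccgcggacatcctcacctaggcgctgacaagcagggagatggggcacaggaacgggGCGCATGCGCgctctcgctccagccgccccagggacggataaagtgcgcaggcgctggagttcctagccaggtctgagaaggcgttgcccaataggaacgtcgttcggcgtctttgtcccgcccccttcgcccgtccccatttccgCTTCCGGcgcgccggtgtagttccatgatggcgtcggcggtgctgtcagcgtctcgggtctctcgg
Atp5d: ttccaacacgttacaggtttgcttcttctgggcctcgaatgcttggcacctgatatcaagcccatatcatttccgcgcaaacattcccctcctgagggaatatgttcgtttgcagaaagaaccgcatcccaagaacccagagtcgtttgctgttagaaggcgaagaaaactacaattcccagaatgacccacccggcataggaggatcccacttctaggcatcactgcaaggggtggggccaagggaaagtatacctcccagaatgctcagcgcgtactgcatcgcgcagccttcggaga

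The promoter table lists 87 promoters for 82 of the 100 member genes, beside 21263 promoters of all protein-coding genes. The NRF1 string was in 12 member promoters (13.8%, against 3.52% of all), the ETS string in 22 (25.3%, against 11.6%), the YY1 string in 11 (12.6%, against 3.05%) and the ERR string in 2 (2.30%, against 0.334%). Any of the 4 was in 39 member promoters (44.8%, against 17.0%). Member promoters held a median of 20 CpG dinucleotides, against 13 in all coding promoters, at a GC content of 58.7% against 56.3%. These matches describe the sequences and were not tested for binding. Across the tested regions that cover a member's start, the CpG count and the log2 fold change of H3K9me2 over input correlated at r = -0.23 in the area at risk (29 regions) and r = -0.22 in the remote myocardium (28 regions), as a description of points that share libraries.

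Counts fell in listed regions only, with 416683 to 1196368 per H3K9me2 library of the area at risk, 1286383 to 2478668 per input library of the area at risk, 443261 to 981763 per H3K9me2 library of the remote myocardium and 1405503 to 1770520 per input library of the remote myocardium. Values are CPM, that is, counts scaled to the same total in listed regions for each library, and a change shared by all regions would not show on this scale. H3K9me2 was set against input within each biopsy with edgeR's quasi-likelihood test across all regions, and a region was called at a Benjamini-Hochberg adjusted p under 0.05. A negative log2 fold change means fewer reads in H3K9me2 than in input.

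Regions of respiratory-chain genes held less H3K9me2 than input in both biopsies. Their summed level was 2072 ± 207 CPM in H3K9me2 of the area at risk and 2899 ± 76.0 CPM in its input, a ratio of means of 0.715 (SD, n = 6 each). It was 2035 ± 129 CPM in H3K9me2 of the remote myocardium and 2945 ± 81.1 CPM in its input, a ratio of 0.691 (SD, n = 6 each). In all 6 mice the H3K9me2 sum was the lower one in both biopsies, and the group ranges did not overlap. The ratio was smallest for complex V, at 0.560 in the area at risk and 0.541 in remote myocardium, and then for complex III, at 0.614 and 0.566. The sums include flanking regions in neighbouring genes. In complex V, a region in Midn averaged 13.9 CPM in H3K9me2 and 52.9 CPM in input of the area at risk, and 9.70 and 64.0 CPM in the remote myocardium. One in Baz2a averaged 11.1 and 37.6 CPM, and 13.6 and 38.6 CPM. The ranking without such regions was not computed. Complexes I (0.743 and 0.737), II (0.699 and 0.732) and IV (0.830 and 0.735) had higher ratios in both biopsies. For complexes II and IV the ranges overlapped in the area at risk, and differences between complexes were not tested.

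**Figure D1:**
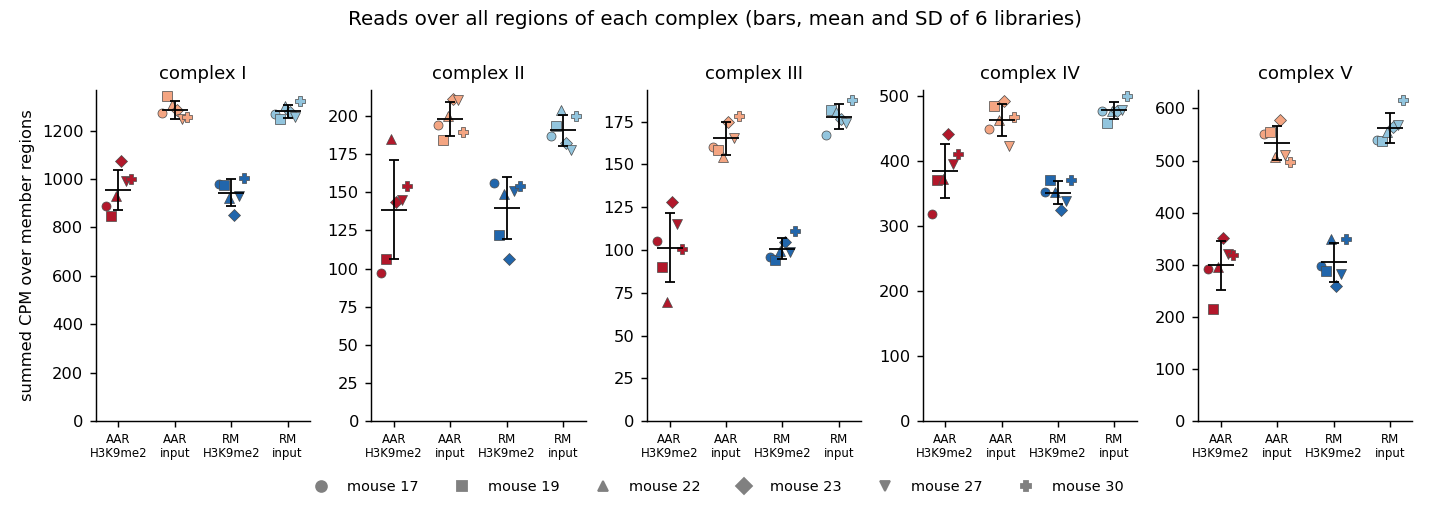
Summed CPM (y axis) over all regions of the structural subunits of each complex, in every library, with H3K9me2 left of its input for the area at risk (AAR) and the remote myocardium (RM). Symbols are mice and black bars the mean and SD of 6 libraries. Complex V lies at 299 CPM in H3K9me2 and 533 CPM in input of the area at risk on average, the deepest relative gap of the 5 complexes. The sums include flanking regions that lie in neighbouring genes.

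In the area at risk 46 of 100 tested member regions were lower in H3K9me2 than in input and 1 was higher; among all tested regions 12.3% were lower and 11.3% higher. In the remote myocardium 57 of 103 were lower and 2 higher, with 20.0% of all tested regions lower and 20.5% higher. The median log2 fold change of the members was -0.46 in the area at risk and -0.54 in remote myocardium, against 0.01 over all tested regions in each. Of the lower calls, 29 of 46 and 39 of 57 held whichever mouse was left out, and the named regions that lost their call are marked below. Gene starts in general were low: of all tested regions that cover a protein-coding start, 39.3% were lower and 2.44% higher in the area at risk, 51.8% were lower and 4.65% higher in the remote myocardium, and their medians were -0.41 and -0.47. Member regions that cover their own gene's start were lower in 21 of 29 cases in the area at risk (72.4%) and 22 of 28 in the remote myocardium (78.6%).

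The other member regions were called lower less often than those that cover the start. Regions that reach within 2 kb of the start without covering it were lower in 5 of 16 and 7 of 16 cases in the area at risk and the remote myocardium, and regions farther off in 11 of 34 and 13 of 37. The rest belong to genes whose start is not in the promoter table, with 9 of 21 and 15 of 22 lower. As shares, the regions within 2 kb had 31.25% and 43.75% lower, and those farther off 32.4% and 35.1%. Over all tested regions, gene starts included, the shares were 12.3% and 20.0% in the same order. Lower calls were thus also made in member regions that do not cover the member's own start. Some of these lie in neighbouring genes, such as Midn and Baz2a, and whether they cover a neighbour's start is not given here. The share over all regions that cover no coding start was not computed, and the difference was not tested. Within genes that had both kinds of tested region, the start region had the lower log2 fold change than every other region in 13 of 16 genes in the area at risk and 10 of 17 in the remote myocardium. The medians over these genes were -0.69 at the start and -0.19 elsewhere in the area at risk, and -0.74 at the start and -0.39 elsewhere in the remote myocardium. This comparison was not made over all coding genes, whose starts were low in general, so it is not a trait shown to be particular to the members.

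**Figure D2:**
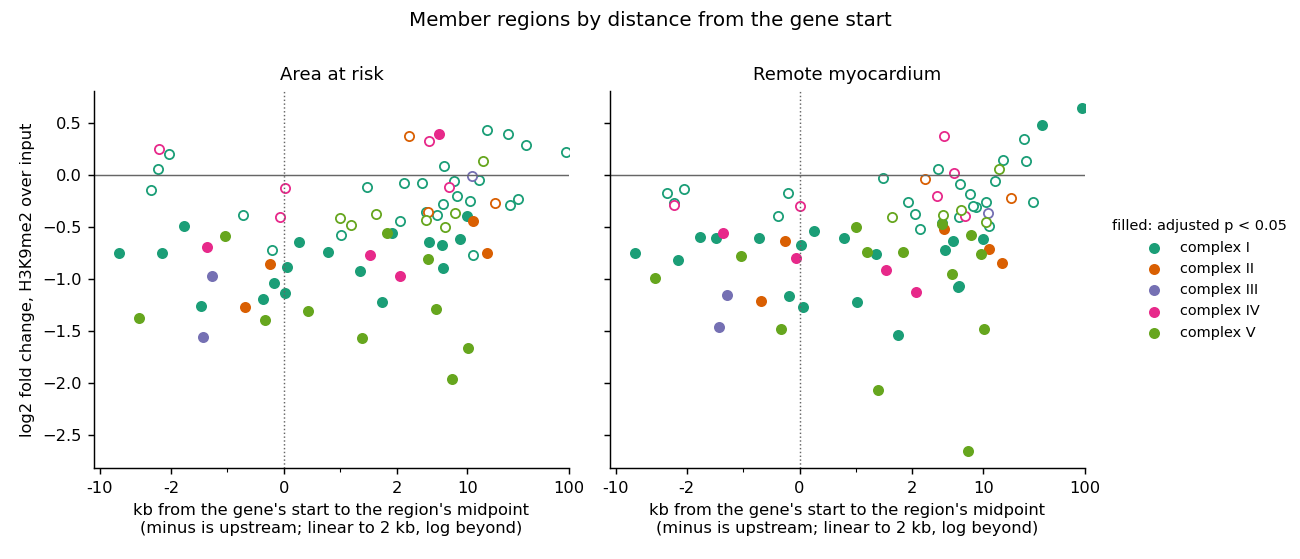
Log2 fold change of H3K9me2 over input (y axis) of each tested member region against the distance in kb of its midpoint from the gene start (x axis, linear to 2 kb and logarithmic beyond), for the area at risk on the left and the remote myocardium on the right. Filled points passed an adjusted p under 0.05 and colours are complexes, assembly factors included; the regions called higher lie more than 2 kb from the start, the farthest in Ndufaf2.

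Of the 122 member regions 8 lay wholly inside another listed region and held no read, and 15 were tested in no contrast. With no filter on low counts 114 member regions were tested, and 47 were lower in the area at risk and 57 in remote myocardium. Of the filtered set, 57 of 100 and 59 of 103 regions reached the filter's level in all 6 H3K9me2 libraries, and among these 18 (31.6%, against 8.48% of all such regions) and 27 (45.8%, against 14.9%) were lower. Neighbouring genes share many of the regions: 47 of the 122 overlap another protein-coding gene. Among tested regions that overlap none, 18 of 61 were lower in the area at risk (29.5%) and 27 of 61 in the remote myocardium (44.3%). Among those that overlap another gene, 28 of 39 (71.8%) and 30 of 42 (71.4%) were lower. Lower calls were thus more frequent in regions shared with a neighbouring gene. The shares over all regions of either kind are not given here, and the difference was not tested.

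Counted by gene, 38 of 60 tested genes in the area at risk had lower regions and no higher one, 1 had a higher one and 21 had no call. In the remote myocardium 42 of 60 had lower regions only, 1 had a higher one only, 1 had both and 16 had no call. Of all coding genes with a tested region, 34.4% in the area at risk and 43.3% in remote myocardium had lower regions and no higher one; these genes had a mean of 3.05 and 3.04 tested regions each, against 1.67 and 1.72 for the members. All 3 complex II genes with a region had a lower region in both biopsies, as did 9 of 12 complex V genes in the area at risk and 10 of 11 in the remote myocardium. The numbers were 16 of 25 in both biopsies for complex I, with 1 more gene called in both directions in the remote myocardium, 2 of 5 and 3 of 5 for complex III, and 5 of 9 and 6 of 10 for complex IV.

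**Figure D3:**
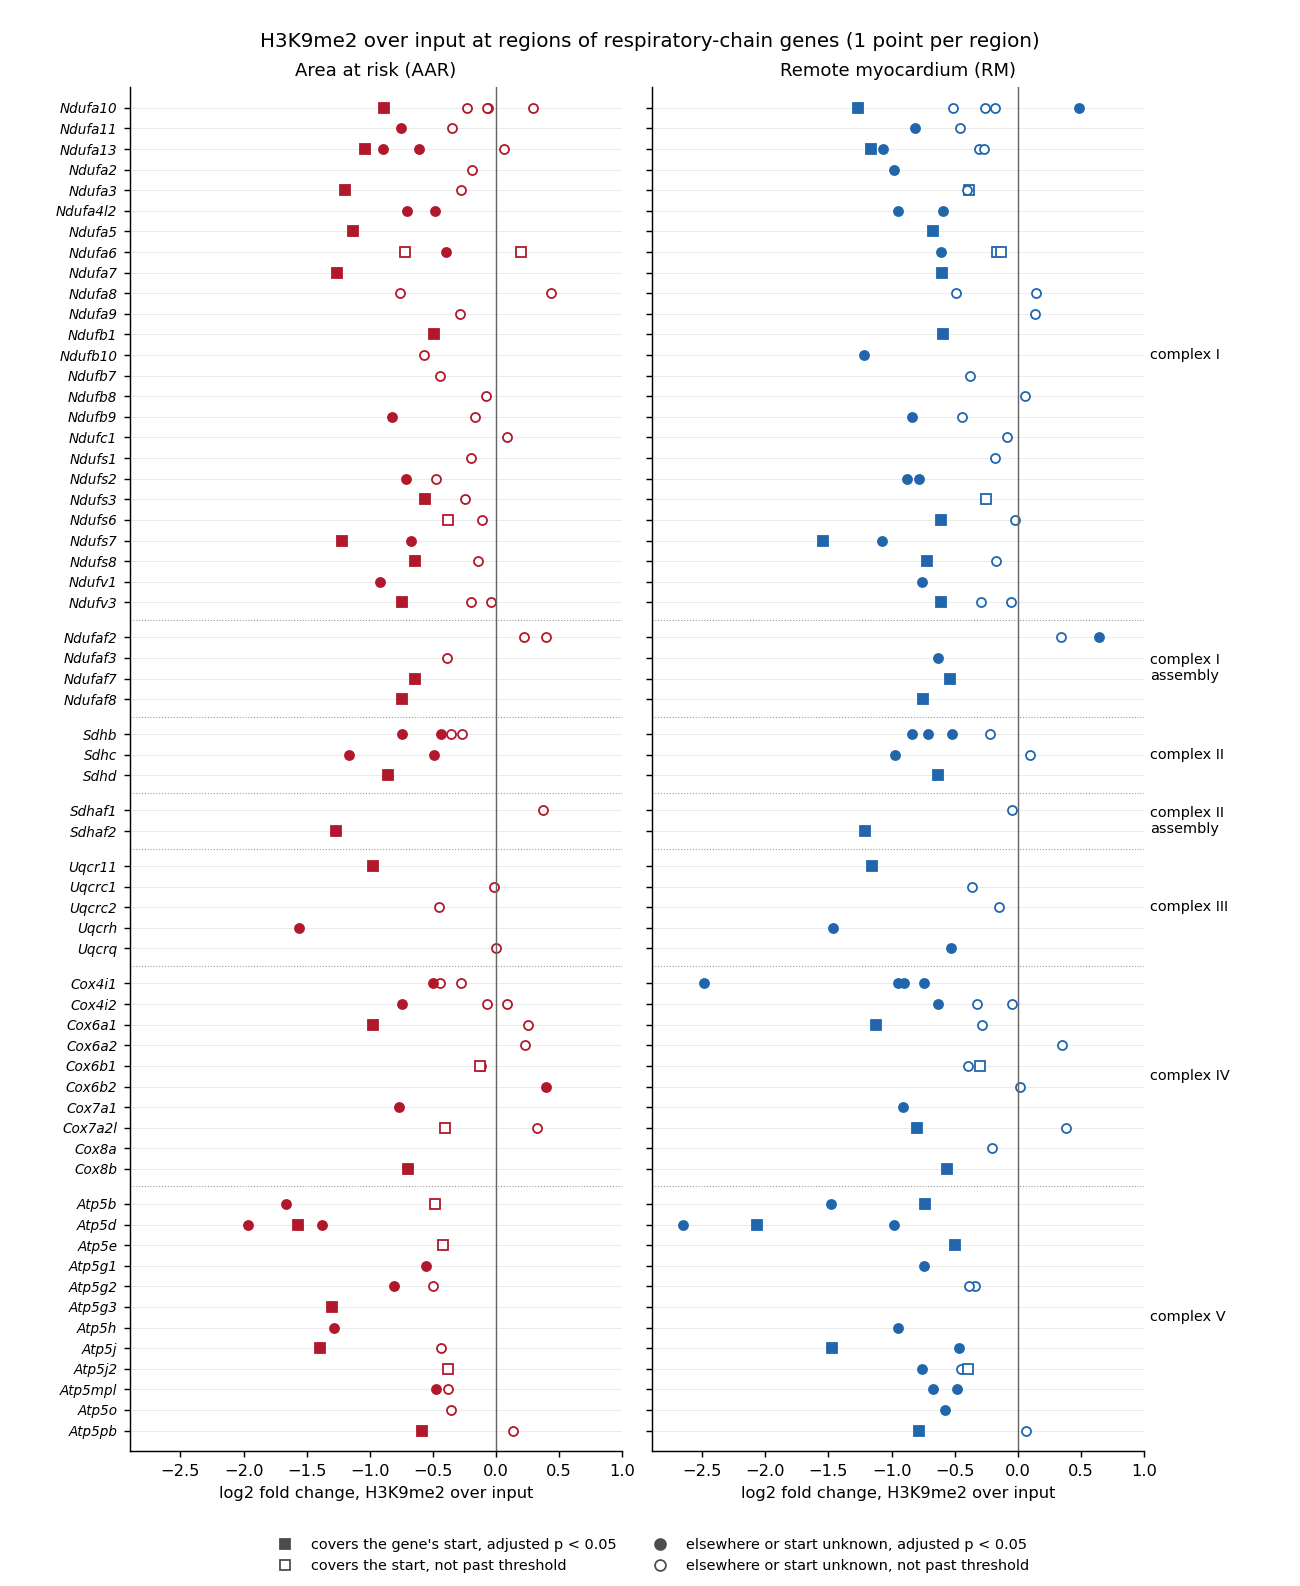
Log2 fold change of H3K9me2 over input (x axis) for each tested region of each gene (rows, grouped by complex), with the area at risk on the left and the remote myocardium on the right. Squares are regions that cover the gene's start and filled symbols passed an adjusted p under 0.05; most filled symbols lie left of 0, and the region of Atp5d that lies in Midn is the leftmost in both panels.

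Complex I, which takes electrons from NADH, has 26 of its 41 genes with a region. Of its 46 tested regions 20 were lower in the area at risk and 21 in remote myocardium, where 1 was higher. The region with the smallest p-value in the remote myocardium lies in the body of Ndufs7 at chr10:80251800-80258399 (mm10) and overlaps the neighbouring Gamt. It had 16.8, 22.6 and 44.3 CPM in H3K9me2 of the area at risk (lowest, median and highest of 6 libraries), against 35.4, 44.0 and 51.6 CPM in its input. In the remote myocardium it had 2.26, 21.8 and 40.2 CPM in H3K9me2, against 46.2, 48.9 and 58.2 CPM in input. All 6 mice were lower in H3K9me2 in both biopsies; the ranges overlapped in the area at risk through mouse 23 and did not overlap in the remote myocardium. The log2 fold change was -0.67 (SE 0.17, adjusted p = 0.0022, edgeR quasi-likelihood) in the area at risk and -1.08 (SE 0.15, adjusted p = 1.99e-09) in the remote myocardium.

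The region over the Ndufs7 start, whose promoter is printed above, was lower still. It had 4.45, 9.30 and 13.0 CPM in H3K9me2 of the area at risk and 14.8, 23.4 and 25.0 CPM in its input. It had 1.46, 6.65 and 13.2 CPM in H3K9me2 of the remote myocardium and 19.8, 21.3 and 23.0 CPM in its input. Every H3K9me2 library lay below every input library in both biopsies, at log2 fold changes of -1.22 (SE 0.25, adjusted p = 0.000264, edgeR) and -1.54 (SE 0.25, adjusted p = 1.25e-07). Other start regions of complex I were low as well. Ndufs8, another iron-sulfur core subunit, had -0.65 in the area at risk and -0.72 in remote myocardium. The accessory subunit Ndufa13 had -1.04 and -1.16 over its start. Ndufa3, also accessory, was lower over its start in the area at risk (-1.19, adjusted p = 0.00118, edgeR) and had -0.39 (adjusted p = 0.181) in the remote myocardium. Ndufa4l2, a paralogue of Ndufa4 placed in complex I by its symbol, has no start in the promoter table. A region that overlaps this gene was lower in both biopsies, at -0.70 and -0.95. Ndufa7, also an accessory subunit, had the smallest p-value of complex I in the area at risk, where its log2 fold change of -1.26 (SE 0.20, adjusted p = 6.71e-06, edgeR) stands beside -0.60 (SE 0.19, adjusted p = 0.00576) in the remote myocardium. Without mouse 30 the remote value was -0.46 (adjusted p = 0.0641, edgeR).

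Ndufa10, an accessory subunit related to nucleoside kinases, had called regions in opposite directions in the remote myocardium. Its start region at chr1:92473000-92474399 held 4.45, 7.10 and 10.8 CPM in H3K9me2 of the area at risk and 11.5, 13.1 and 17.1 CPM in its input, and 1.46, 4.43 and 9.17 CPM in H3K9me2 of the remote myocardium and 9.86, 11.5 and 17.7 CPM in its input. No library of H3K9me2 reached the lowest input library of its biopsy, and the log2 fold changes were -0.88 (SE 0.28, adjusted p = 0.0171, edgeR) and -1.26 (SE 0.30, adjusted p = 0.000306). The region past the other end of the gene, chr1:92432200-92439199, held 61.02, 72.0 and 80.2 CPM in H3K9me2 of the area at risk and 52.0, 57.2 and 64.3 CPM in its input, and 58.7, 78.1 and 110.4 CPM in H3K9me2 of the remote myocardium and 53.8, 57.7 and 67.9 CPM in its input. In all 6 mice H3K9me2 was the higher value there, with overlapping ranges. The log2 fold change was 0.48 (SE 0.11, adjusted p = 0.00012, edgeR) in the remote myocardium and 0.29 (SE 0.12, adjusted p = 0.0618) in the area at risk, where it passed with the mouse as a block (adjusted p = 0.0434, edgeR). With that block 3 member regions were higher in the area at risk.

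The complex I assembly factors had 5 tested regions, of which 2 were lower in the area at risk and 3 in remote myocardium. The Ndufaf8 region, chr11:120084600-120100399, covers its start together with the genes Cep131 and Tepsin. It had 51.8, 59.9 and 92.8 CPM in H3K9me2 of the area at risk, against 97.7, 107.0 and 126.3 CPM in input. It had 56.6, 71.5 and 80.5 CPM in H3K9me2 of the remote myocardium, against 104.5, 120.8 and 125.1 CPM in input. The ranges did not overlap in either biopsy, and the log2 fold change was -0.75 in both (SE 0.12, adjusted p = 7.32e-06 in the area at risk; SE 0.10, adjusted p = 1.98e-10 in the remote myocardium, edgeR). Ndufaf7, a methyltransferase that modifies a complex I subunit, was lower at -0.65 (adjusted p = 0.0464, edgeR) and -0.54 (adjusted p = 0.0489), and with the mouse as a block the remote value missed the threshold (adjusted p = 0.0585). The first call was lost with DESeq2 (adjusted p = 0.0973) and on leaving out any 1 of mice 17, 19, 22, 27 and 30 (0.0729 to 0.14, edgeR). The remote call was also lost with DESeq2 (0.111), with median-of-ratios size factors (0.051) and on leaving out any 1 of mice 19, 27 and 30 (0.144 to 0.187). The assembly factor Ndufaf3 was lower in the remote myocardium, at -0.63 (SE 0.16, adjusted p = 0.000718, edgeR) in a flanking region that lies in Impdh2, and had -0.39 (adjusted p = 0.0799) in the area at risk, where it passed without mouse 23. A region deep in the assembly factor Ndufaf2 was higher in the remote myocardium, at 0.64 (SE 0.16, adjusted p = 0.00043, edgeR), and had 0.22 (SE 0.17, adjusted p = 0.363) in the area at risk.

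Complex II oxidises succinate and is the one complex whose subunits are all nuclear. Sdha, its flavoprotein, had no listed region. Sdhb, the iron-sulfur subunit, had 4 tested regions, with 2 lower in the area at risk and 3 in remote myocardium. Its region of smallest p-value, chr4:140970000-140975199, lies inside the gene and overlaps no other coding gene. It had 18.4, 32.8 and 46.8 CPM in H3K9me2 of the area at risk, against 41.7, 47.3 and 47.7 CPM in input. It had 23.2, 28.9 and 31.6 CPM in H3K9me2 of the remote myocardium, against 43.1, 45.9 and 52.0 CPM in input. The ranges overlapped in the area at risk alone, and the log2 fold changes were -0.44 (SE 0.15, adjusted p = 0.0239, edgeR) and -0.71 (SE 0.15, adjusted p = 2.28e-05). The call in the area at risk was lost with DESeq2 (adjusted p = 0.0577) and on leaving out any 1 of mice 17, 19, 22 and 27 (0.0514 to 0.123, edgeR). One more Sdhb region in each biopsy lost its call: in the area at risk without mouse 27 or 30 (0.0697 to 0.0746, edgeR), and in the remote myocardium with DESeq2 (0.065) and without mouse 19, 22 or 30 (0.0828 to 0.109).

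The membrane anchors Sdhc and Sdhd were low as well. The Sdhd start region, shared with Timm8b, had 3.60, 11.7 and 19.2 CPM in H3K9me2 of the area at risk and 17.1, 20.0 and 23.1 CPM in its input, and 7.29, 9.16 and 22.4 CPM in H3K9me2 of the remote myocardium and 15.7, 19.0 and 22.6 CPM in its input. The ranges overlapped, 5 of 6 mice were lower in each biopsy, and the log2 fold changes were -0.86 (SE 0.24, adjusted p = 0.00717, edgeR) and -0.63 (SE 0.23, adjusted p = 0.0174). The remote call was lost on leaving out any 1 of mice 17, 19, 22 and 27 (adjusted p of 0.0527 to 0.0772, edgeR). In Sdhc a region that overlaps the gene was lower in both biopsies, at -1.16 (SE 0.27, adjusted p = 0.00111, edgeR) and -0.97 (SE 0.28, adjusted p = 0.0025). A region beside Sdhc, in Cfap126, was lower in the area at risk, at -0.49 (SE 0.17, adjusted p = 0.023, edgeR), and had 0.10 (SE 0.15, adjusted p = 0.634) in the remote myocardium. Its call was lost with DESeq2 (adjusted p = 0.0632) and without mouse 19 or 27 (0.0755 in each case, edgeR).

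The assembly factor Sdhaf2, which is needed to attach the flavin to Sdha, was lower over its start at chr19:10524800-10526999, a region shared with Cpsf7. It had 4.18, 9.37 and 14.4 CPM in H3K9me2 of the area at risk, against 13.7, 19.0 and 38.5 CPM in input. It had 1.45, 9.61 and 13.2 CPM in H3K9me2 of the remote myocardium, against 14.6, 20.5 and 24.2 CPM in input. All 6 mice were lower in both biopsies, the ranges overlapped in the area at risk, and the log2 fold changes were -1.27 (SE 0.28, adjusted p = 0.000588, edgeR) and -1.21 (SE 0.25, adjusted p = 2e-05).

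Complex III passes electrons to cytochrome c. The region over Uqcr11, chr10:80404000-80412199, reaches into Tcf3. It had 21.6, 27.7 and 55.2 CPM in H3K9me2 of the area at risk, against 57.7, 75.3 and 83.1 CPM in input. It had 29.4, 35.9 and 45.0 CPM in H3K9me2 of the remote myocardium, against 72.6, 82.1 and 91.5 CPM in input. The ranges did not overlap in either biopsy, although mice 23 and 27 came close to the lowest input in the area at risk. The log2 fold changes were -0.97 (SE 0.15, adjusted p = 2.51e-06, edgeR) and -1.15 (SE 0.12, adjusted p = 2.61e-15). Uqcrh, the hinge protein that docks cytochrome c1, had -1.56 (SE 0.25, adjusted p = 7.32e-06, edgeR) and -1.46 (SE 0.23, adjusted p = 3.55e-08) in a region beside its start that lies in Lrrc41. The core subunits Uqcrc1 and Uqcrc2 had no called region. Uqcrq, which lies near the ubiquinone site, was lower in the remote myocardium, at -0.53 (SE 0.18, adjusted p = 0.0103, edgeR), and had 0.00 (SE 0.18) in the area at risk. Without mouse 27 its remote value was -0.43 (adjusted p = 0.0704, edgeR).

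**Figure D4:**
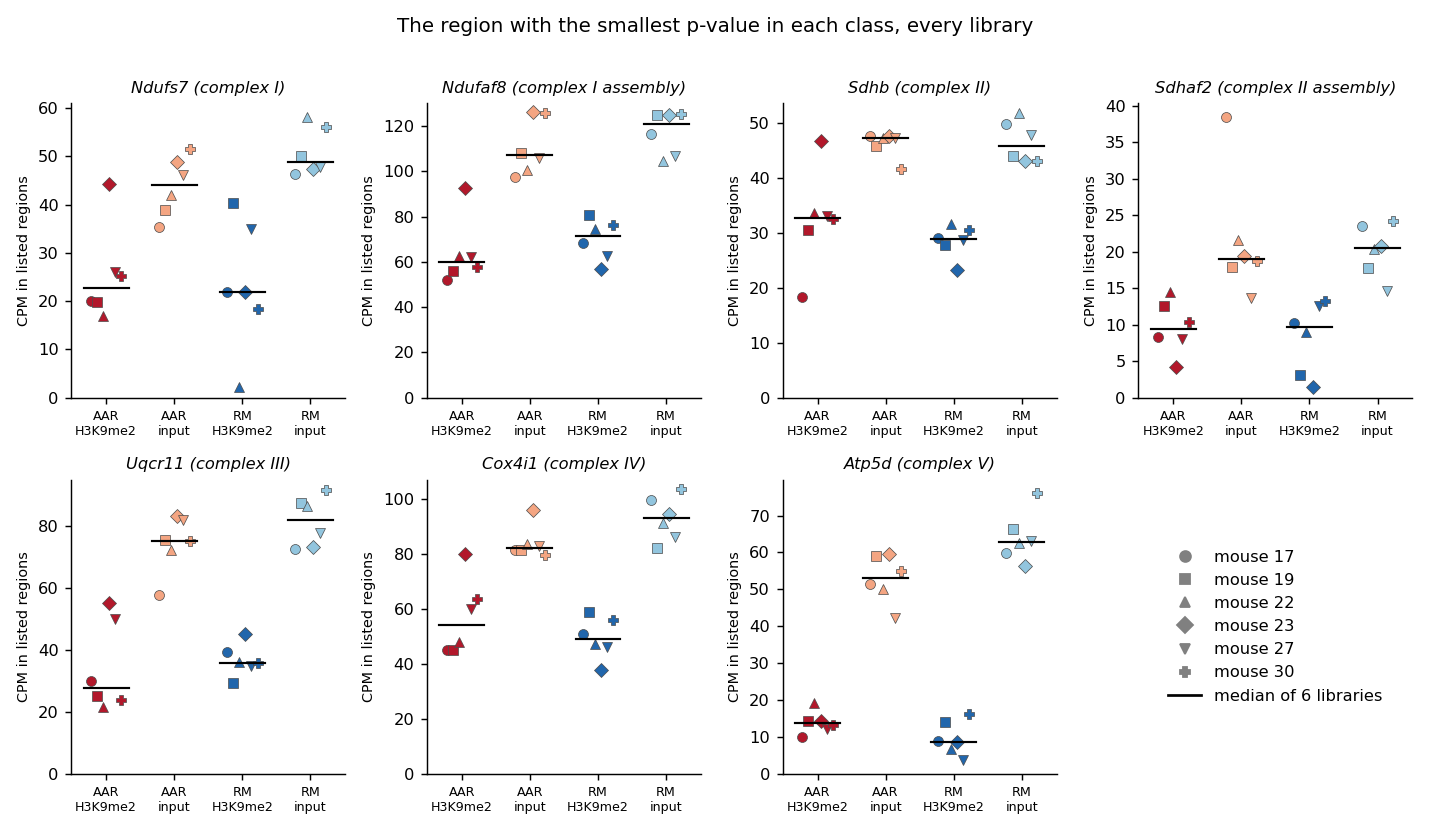
CPM (y axis, from 0) of the region with the smallest remote-myocardium p-value in each class, in every library, with H3K9me2 left of its input for the area at risk (AAR) and the remote myocardium (RM). Symbols are mice and black lines the medians of 6 libraries; the choice by the remote p-value favours separation in that biopsy, where the H3K9me2 libraries of all 7 panels lie below every input library. In the area at risk mouse 23 reaches into the input range at Ndufs7, Sdhb and Cox4i1 and mouse 22 at Sdhaf2.

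Complex IV reduces oxygen and has tissue-specific isoforms. Cox4i1, the broadly expressed isoform of the regulatory subunit, had 4 regions, all lower in the remote myocardium, where each was tested. The weakest of these calls was lost with DESeq2 (adjusted p = 0.0975) and on leaving out any 1 of mice 17, 19, 22, 23 and 27 (0.0573 to 0.171, edgeR). Of the 3 tested in the area at risk, 1 was lower, and another passed without mouse 23 and the last without mouse 30. The lower one, chr8:120675600-120685399, lies beside the gene and overlaps no other coding gene. It had 45.0, 54.0 and 80.2 CPM in H3K9me2 of the area at risk, against 79.5, 82.4 and 96.0 CPM in input. It had 37.8, 49.2 and 58.8 CPM in H3K9me2 of the remote myocardium, against 82.2, 93.1 and 103.9 CPM in input. Mouse 23 brought the ranges into contact in the area at risk, while those of the remote myocardium were apart. The log2 fold changes were -0.50 (SE 0.12, adjusted p = 0.00211, edgeR) and -0.90 (SE 0.11, adjusted p = 7.12e-12).

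The isoform pairs did not share one pattern. Cox4i2, the form known from lung and low oxygen, was lower at -0.74 (SE 0.22, adjusted p = 0.0108, edgeR) and -0.63 (SE 0.22, adjusted p = 0.0136) in 1 of its regions, which reaches into Bcl2l1, and the remote call was lost without mouse 19 (adjusted p = 0.0706, edgeR). The Cox6a1 start region had 1.67, 10.5 and 23.7 CPM in H3K9me2 of the area at risk and 15.9, 22.6 and 29.9 CPM in its input, and 7.74, 9.97 and 14.6 CPM in H3K9me2 of the remote myocardium and 14.9, 22.8 and 32.6 CPM in its input. It was lower at -0.97 (SE 0.26, adjusted p = 0.00387, edgeR) and -1.13 (SE 0.23, adjusted p = 1.35e-05), and without mouse 23 the first value was -0.68 (adjusted p = 0.0612, edgeR). Its heart and muscle counterpart Cox6a2 had no called region, with 0.23 (SE 0.19) and 0.35 (SE 0.18) in a flanking region that lies in Itgad.

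Cox7a1, the heart and muscle isoform, was lower at -0.77 (SE 0.25, adjusted p = 0.017, edgeR) and -0.91 (SE 0.22, adjusted p = 0.000474), and the call in the area at risk was lost on leaving out any 1 of mice 17, 19 and 27 (0.0512 to 0.086). Cox7a2 had no listed region. Cox8b, the heart and muscle form in rodents, was lower over its start at -0.69 (SE 0.21, adjusted p = 0.0132, edgeR) and -0.56 (SE 0.19, adjusted p = 0.0107). Its calls were lost in the area at risk without mouse 17 or 19 (adjusted p of 0.0645 and 0.0613, edgeR) and in the remote myocardium without mouse 17 or 27 (0.0528 and 0.0704). The broadly expressed Cox8a had -0.20 (SE 0.29) in the remote myocardium and was not tested in the area at risk. Cox6b1, of the common form, had -0.12 (SE 0.19) and -0.30 (SE 0.18) over its start, not past the threshold. Its testis counterpart Cox6b2 gave the 1 higher call of the area at risk, in a flanking region that lies in Kmt5c, at 0.40 (SE 0.14, adjusted p = 0.0292, edgeR; 0.0601 with DESeq2), against 0.02 (SE 0.13, adjusted p = 0.918) in the remote myocardium. The call was also lost on leaving out any 1 of mice 17, 22, 27 and 30 (0.0619 to 0.136, edgeR).

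Complex V, the ATP synthase, had 11 of 19 tested regions lower in the area at risk and 15 of 20 in the remote myocardium. All 3 regions of Atp5d were lower in both biopsies. The region chr10:80146200-80152599 lies beside Atp5d, inside the neighbouring Midn. It had 10.03, 13.8 and 19.2 CPM in H3K9me2 of the area at risk, against 42.1, 53.2 and 59.7 CPM in input. It had 3.74, 8.73 and 16.3 CPM in H3K9me2 of the remote myocardium, against 56.2, 62.9 and 76.1 CPM in input. The groups lay far apart in both biopsies, at log2 fold changes of -1.96 (SE 0.18, adjusted p = 2.3e-12, edgeR) and -2.65 (SE 0.18, adjusted p = 7.19e-33). The region over the Atp5d start itself had 3.34, 11.5 and 15.0 CPM in H3K9me2 of the area at risk and 24.3, 34.9 and 40.3 CPM in its input, and 4.37, 7.01 and 18.3 CPM in H3K9me2 of the remote myocardium and 31.6, 37.8 and 46.0 CPM in its input. These ranges did not overlap either, and the log2 fold changes were -1.57 (SE 0.21, adjusted p = 2.85e-07, edgeR) and -2.07 (SE 0.21, adjusted p = 3.42e-17).

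Atp5d, Ndufs7 and Uqcr11 are neighbours on chromosome 10, where their 6 regions lie within a stretch of 275.4 kb, chr10:80136800-80412199, which was singled out after its values were seen. All 6 were lower in both biopsies. Regions of other genes in the same stretch were lower in 24 of 38 tested cases in the area at risk and 27 of 37 in the remote myocardium, and none was called higher.

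Other parts of the ATP synthase were low too. Atp5b, the catalytic beta subunit, had -1.66 (SE 0.20, adjusted p = 1.95e-08, edgeR) and -1.48 (SE 0.18, adjusted p = 4.85e-12) in a flanking region that lies in Baz2a, and -0.48 (SE 0.31, adjusted p = 0.263, edgeR) and -0.74 (SE 0.30, adjusted p = 0.0357) over its own start, where the remote call was lost with DESeq2 (0.0895) and on leaving out any mouse but 17 (0.0631 to 0.103). Atp5o, a subunit of the peripheral stalk, was lower in the remote myocardium, at -0.58 (SE 0.20, adjusted p = 0.0141, edgeR) in a flanking region, a call lost without mouse 23 or 27, and had -0.36 (adjusted p = 0.227) in the area at risk. Atp5j, a subunit of the same stalk, shares its start region with Gabpa, the ETS-family activator of respiratory genes. That region had 3.60, 6.31 and 11.01 CPM in H3K9me2 of the area at risk and 13.5, 17.7 and 23.0 CPM in its input, and 1.45, 7.51 and 13.5 CPM in H3K9me2 of the remote myocardium and 12.5, 20.1 and 24.9 CPM in its input. The ranges were apart in the area at risk and overlapped in the remote myocardium, at -1.39 (SE 0.28, adjusted p = 0.000195, edgeR) and -1.47 (SE 0.26, adjusted p = 8.95e-07). Atp5h, another stalk subunit, was lower at -1.29 (SE 0.20, adjusted p = 2.44e-06, edgeR) and -0.95 (SE 0.17, adjusted p = 2.01e-06). Of the c-ring genes, Atp5g1 was lower in both biopsies (-0.56 and -0.74), Atp5g2 in the area at risk (-0.81), and Atp5g3 over its start in the area at risk (-1.30, SE 0.34, adjusted p = 0.00341, edgeR), where alone it was tested. The calls of Atp5g1 and Atp5g2 in the area at risk were lost with DESeq2 (adjusted p of 0.0624 and 0.0501), the first also without mouse 17, 19 or 30 (0.0509 to 0.057, edgeR) and the second without mouse 17, 19, 22 or 27 (0.0581 to 0.111).

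Most member regions had the same sign against input in both biopsies. Of 99 member regions tested against input in both, 40 were lower in both, 5 in the area at risk alone and 15 in the remote myocardium alone, and 90 had the same sign. Those 40 are 87.0% of the regions lower in the area at risk and 70.2% of those lower in the remote myocardium. The log2 fold changes correlated at r = 0.826 and rho = 0.786 across the 99 regions, which come from the same 6 mice and share depth, so no p is given. These counts and correlations were not computed over all regions. Most tested members were below 0 in each biopsy, 86 of 100 in the area at risk and 92 of 103 in the remote myocardium, which by itself favours a shared sign. The log2 fold change was the more negative one in the remote myocardium for 65 of the 99 (65.7%), against 20161 of all 40333 regions tested in both. That share was not computed over regions that cover a coding start. The median interaction was 0.10 over the members, 0.06 over all tested regions that cover a coding start and 0.01 over all tested regions. A lean of this sign is thus not shown to be particular to the members. The median of the interaction over members lay between 0.03 and 0.14 with a mouse left out, and no tested member passed the direct tests given next. Taken over members within each mouse, the median difference in log2(CPM + 1) of H3K9me2 against input lay between -0.79 and -0.31 in the area at risk and between -0.70 and -0.45 in the remote myocardium.

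**Figure D5:**
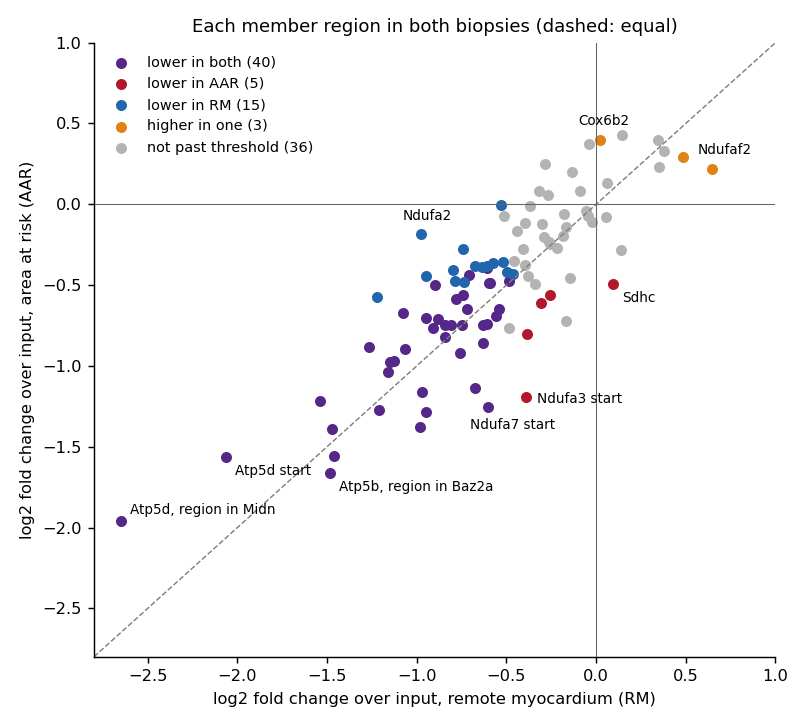
Log2 fold change of H3K9me2 over input in the area at risk (y axis) against that in the remote myocardium (x axis) for the 99 member regions tested in both, coloured by call; the dashed line marks equal values. The 40 regions lower in both extend down to the Atp5d region in Midn, which lies above the line. Its value was -2.65 in remote myocardium, against -1.96 in the area at risk. The start regions of Ndufa3 and Ndufa7 and the flanking regions labelled Ndufa2 (in Tmco6) and Sdhc (in Cfap126) also lie away from the line.

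Direct tests between the biopsies made no call among the members. When H3K9me2 was compared between area at risk and remote myocardium, 0 of 59 tested member regions were called, as were 0% of all 31526 tested regions. This comparison holds no input library, so regions with few H3K9me2 reads could miss its count filter. Only 12 of 30 start-covering member regions and 10 of 24 complex V regions were tested in it. The regions of Atp5d in Midn, Atp5b in Baz2a and Uqcrh in Lrrc41 and the Ndufs7 start were not. At an unadjusted p under 0.05 there were 3 members (5.08%), against 4.03% of all regions, and DESeq2 made 0 calls, with 2 members under that level. The member log2 fold changes had a median of 0.06 and ran between -0.56 and 0.61, with 40 above 0 (67.8%, against 50.3% of all regions), and a median standard error of 0.22. The median was 0.03 over all tested regions that cover a coding start and 0.001 over all tested regions. The mice were split: the members' median difference was below 0 in mice 17, 19 and 22 (-0.09, -0.10 and -0.08) and above 0 in mice 23, 27 and 30 (0.25, 0.20 and 0.05). With a mouse left out the median log2 fold change lay between 0.01, without mouse 23, and 0.11, without mouse 22. For input, 0 of 107 members and 0% of all regions were called, with 3 members (2.80%) and 2.72% of all regions at an unadjusted p under 0.05, and DESeq2 made 0 calls, with 2 members under it. For the difference of the input-corrected values (the interaction of biopsy and precipitation over all 24 libraries), 0 of 106 members and 0% of all regions were called, with 7 members (6.60%) and 4.07% of all regions at an unadjusted p under 0.05; DESeq2 was not run on it.

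The members with the smallest unadjusted p between biopsies are given by value, none being past the threshold. In H3K9me2 the positive differences of smallest p were at a region beside Ndufa2 (log2 fold change 0.61, SE 0.26, adjusted p = 0.999, edgeR), a region beside Cox6a1 (0.52, SE 0.22) and Uqcrq (0.40, SE 0.21). The region beside Ndufa2 does not reach the gene and overlaps the neighbouring Tmco6. It had 10.8, 19.1 and 26.7 CPM in H3K9me2 of the area at risk and 5.81, 13.3 and 20.4 CPM in H3K9me2 of the remote myocardium, higher in the area at risk in 6 of 6 mice with overlapping ranges. The negative ones were the Sdhc region in Cfap126 (-0.56, SE 0.20), the Ndufa7 start region (-0.40, SE 0.26) and a region of Ndufa13 away from its start (-0.38). The Ndufa13 start region was not tested in this comparison. The Sdhc region had 16.2, 24.2 and 28.8 CPM in H3K9me2 of the area at risk and 18.9, 34.9 and 49.9 CPM in H3K9me2 of the remote myocardium, lower in the area at risk in 5 of 6 mice. In input the positive differences were at Ndufa3 (0.36, SE 0.17), Ndufa7 (0.24) and a region of Sdhb (0.24), and the negative ones at the Atp5d region in Midn (-0.27, SE 0.09), Atp5o (-0.35, SE 0.15) and Uqcrc1 (-0.31, SE 0.16), none of which passed (adjusted p = 0.9998, edgeR). The interaction was above 0 at the region beside Ndufa2 (0.81, SE 0.28), the Atp5d region in Midn (0.69, SE 0.31) and the Cox4i1 flank (0.41, SE 0.17). It was below 0 at Ndufa3 (-0.78, SE 0.37), Ndufa7 (-0.65, SE 0.29) and the Sdhc region in Cfap126 (-0.58, SE 0.22).

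Genes around the pathway were read in the same fits. Over all tested regions, 12.3% were lower and 11.3% higher in the area at risk, and 20.0% and 20.5% in the remote myocardium. The 17 genes of the tricarboxylic acid cycle and pyruvate dehydrogenase had 10 of 26 tested regions lower and 1 higher in the area at risk, and 12 of 25 lower and 2 higher in the remote myocardium. Cs, citrate synthase, had -0.87 and -0.93. Of 6 regions of electron carriers, 2 were lower and 1 higher in each biopsy: Cyc1, cytochrome c1, had -0.94 (adjusted p = 0.0607 without mouse 27, edgeR) and -1.43, and Etfb, of the electron transfer flavoprotein, was higher at 0.66 and 0.79. Assembly factors outside the symbol rule had 7 of 43 regions lower and 5 higher in the area at risk and 13 of 42 lower and 7 higher in the remote myocardium, with Surf1 at -0.96 and -0.86, Atpaf2 at -1.16 in the area at risk and Cox10 at 0.83 in the remote myocardium. Transcriptional regulators had 6 of 40 lower and 5 higher in the area at risk and 10 of 40 lower and 6 higher in the remote myocardium. Their median log2 fold changes were -0.01 and 0.13. The smallest p-value in each biopsy was at Yy1, with -1.79 and -2.29. Esrra had -0.60 in the area at risk and Gabpa, in the region shared with Atp5j, -1.47 in the remote myocardium. None of these lists had a call between the biopsies.

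Markers of heart cell types were set beside these values, since the tissue is mixed. The shares over all tested regions given for the lists above are the background for these counts as well. Cardiomyocyte markers had 5 of 14 tested regions lower in the area at risk and 9 of 14 in the remote myocardium, with 0 higher. Most of these belong to Atp2a2, which pumps calcium back into the sarcoplasmic reticulum, with 3 of its 6 regions lower in the area at risk and 6 of 6 in the remote myocardium, down to -1.65 and -1.74. Both regions of Tnni3 were lower in each biopsy and the region of Myh7 in the remote myocardium, whereas no region of Myh6, Tnnt2 or Ttn was called and their values ran up to 0.12 and 0.38. The call of 1 Tnni3 region in the area at risk was lost without mouse 19, 22 or 23 (adjusted p = 0.0596 to 0.0759, edgeR), and that of Myh7 without mouse 30 (0.0691). Endothelial markers had 4 of 24 lower in each biopsy with 3 and 2 higher, fibroblast markers 1 of 7 and 4 of 7 lower, and macrophage and leukocyte markers 1 of 4 and 2 of 4 lower with 1 higher in the remote myocardium. Between the biopsies no region of these lists was called. DNA libraries do not show which cells are present, so the labelled tissue could not be checked against its markers, and the part of cell makeup in the results was not tested.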

How the data were processed

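Each of the authors' 4 deposited tables gives whole-number counts for a shared set of mm10 regions, read here as raw counts from the values; each table also holds the authors' log2 fold change, log2 mean CPM, p-value and FDR, per the file headers. Per the submitters' processing notes, Bowtie2 2.2.2, SICER 1.1 and edgeR are named, with no role given. The region calling and the way reads in overlapping regions were counted are not given in the sources used here. Columns shared between tables were identical in 24 of 24 checks.

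Each pair of groups (12 libraries) was fitted over all regions in edgeR 4.0.16 (R 4.3.3) after filterByExpr and TMM scaling. Calls came from its quasi-likelihood test, two-sided. The interaction used all 24 libraries. The fit was first tested on simulated counts. In the authors' deposited tables, 51 member regions had an FDR under 0.05 for the area at risk against input, 54 for the remote myocardium against input, and 0 in each biopsy contrast; 45 and 49 of them were lower in H3K9me2 in both that table and the fit used here. The deposited fold changes run the other way round, input over H3K9me2 and remote over risk.

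Genes came from the RefSeq annotation of GRCm38.p6, and starts and strands from its promoter table. Regions were assigned to a gene by overlap or within 2 kb. CPM divides by each library's total in listed regions, so the depth outside them is unknown. Libraries with the same mouse number come from a single animal and are paired by design; same-mouse deviations over regions with a mean count of at least 30 correlated between -0.023 and 0.255 (area at risk against its input), 0.002 and 0.122 (remote against its input), -0.273 and 0.095 (H3K9me2 between biopsies) and -0.135 and 0.037 (input between biopsies). The members, the gene lists and the tests were chosen with earlier results of these data known. Named regions were, in each class and input contrast, up to 4 genes of smallest p among lower calls and 3 among higher ones, the 3 of smallest p in each direction between biopsies, all complex II genes, the isoform pairs, and genes called in both directions; others were named after their values were seen, and 1 gene that the rule picks is not reported here. Sdhaf genes were made a class of their own after the data were seen. Alternatives were DESeq2 1.42.0, other scalings, no filter, the mouse as a block, each mouse left out, FDR 0.01, no flank, regions that overlap no other listed region, structural subunits only, 1 region per gene and, chosen after the data were seen, regions that overlap no other coding gene.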

Additional observations from a re-analysis of the deposited data

Results flagged for a closer look

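In 60 groups of 6 values that were checked, 5 had 1 library standing apart from the other 5, and about 1 group in 20, or 3, would be marked so by chance. Mouse 23 had 44.3 CPM at the Ndufs7 gene-body region and 92.8 CPM at the Ndufaf8 region in H3K9me2 of the area at risk, each far above the other 5 libraries of that group. The same mouse had 96.0 CPM at the Cox4i1 flank in input of the area at risk, above the others. Mouse 30 had 41.7 CPM at the Sdhb region in input of the area at risk, below the others. Mouse 17 had 38.5 CPM at the Sdhaf2 start in input of the area at risk, above the others. The causes were not tested.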

How the results depend on the processing

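With the mouse as a replicate block, 47 member regions were lower and 3 higher in the area at risk (46 and 1 without it), and 57 were lower in the remote myocardium (57 without it), with 0 calls between biopsies in either fit; beside the Ndufa10 flank, Ndufaf7 and the third of those higher regions, in Ndufa8, the block changed no call of a named region. The single higher call of the area at risk became 0 with DESeq2, at FDR 0.01, without the 2 kb flank and over regions that overlap no other coding gene, and with a mouse left out lay between 0 (without mouse 17, 22, 27 or 30) and 2 (without mouse 23). The lower calls of the area at risk fell to 29 at FDR 0.01 and to 18 over regions that overlap no other coding gene, and lay between 34 and 47 with a mouse left out. The lower calls of the remote myocardium fell to 33 with 1 region per gene and to 27 over regions that overlap no other coding gene, where fewer regions are counted, and lay between 45 and 53 with a mouse left out. The 2 higher calls there became 1 without the flank and 1 over structural subunits only. No call reversed its sign under any alternative. The other counts and medians against input kept their direction and stayed within 1.5 times of the values given. Every input library was deeper than every H3K9me2 library, and low counts per region limit the single-region values.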
